A study of Mus musculus and Mus musculus musculus x Mus musculus castaneus with 8 samples.

Results

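Of the 8257 open chromatin peaks called in mouse fibroblast nuclei 48 h after nuclear transfer (NT), 893 (10.8%, 95% Wilson interval 10.2% to 11.5%) flanked a site that was open in the donor cells without touching it by even 1 bp of overlap. They were chosen by the positions of peak calls in 3 deposited lists. Each overlapped no peak of the donor mouse embryonic fibroblasts (MEFs), lay less than 5000 bp from the nearest donor MEF peak when measured from edge to edge, and overlapped no peak of C2C12 myoblasts called from 50000 cells. A further 345 peaks met the distance limit but lay on a C2C12 peak, 3873 lay on a donor MEF peak, and the rest were farther away, 259 of them on a C2C12 peak and 2887 not. The window and the absence from the MEF and C2C12 lists are thus fixed by the choice, and the gaps inside the window are given as a description. The Toca1 list had no part in it.

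The series holds 8 ATAC-seq libraries of mouse cells, which map open chromatin. Donor MEFs (1 library of 3000 cells) came from embryos of a cross that the labels give as Musculus musculus with Mus musculus castaneus, and were permeabilized for transfer. The nuclei were sampled 48 h after they had been put into Xenopus laevis oocytes without further treatment (2 libraries of 3000 cells) or into oocytes that overexpressed Toca1 (1 library of 3000 cells). C2C12 is a mouse myoblast line of strain C3h that was never transferred (2 libraries of 50000 cells and 2 of 1000 cells). Both NT conditions used MEFs of the same cross, and the cells of each NT library came from several oocytes pooled together. The authors deposited 1 list of peaks per condition at a false discovery rate of 0.01, with 39592 peaks in donor MEFs, 16412 with Toca1, 52697 in C2C12 from 50000 cells and 34771 in C2C12 from 1000 cells. The lists give positions in mm9 without scores or reads. Sequencing depth is therefore unknown, and with 1 list per condition no spread between replicates can be given.

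In ATAC-seq a transposase cuts where DNA is not covered by nucleosomes, and a peak marks a stretch with more cuts than its surroundings. Active promoters and enhancers are known as such stretches, held open by transcription factors and by enzymes that move nucleosomes. The Xenopus oocyte nucleus is filled with stored histones, linker histones, chaperones and transcription factors, which replace much of the somatic chromatin machinery of a transferred nucleus without cell division. The lists alone do not say whether a peak beside an old site is an element of its own or another part of the same regulatory element.

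The flanking peaks were short. Their widths ran from 150 to 865 bp, with a median of 244 bp and quartiles of 200 and 320 bp, and together they covered 245 kb. Peaks after NT that lay on a donor MEF peak had a median width of 376 bp, whereas the 2887 distant peaks absent from C2C12 had a median of 238 bp. The 345 near peaks on a C2C12 peak had a median of 277 bp. In width the flanking peaks thus resembled the distant new peaks more than those on an old site. A wider peak overlaps another more easily, and the classes are set by overlap, so this is a description only. They lay about as often on either side of the old site, with the MEF peak at the lower coordinate for 441 and at the higher coordinate for 452. The coordinates carry no gene strand, so neither side can be called upstream.

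The gaps to the donor site were uneven. The median gap was 1499 bp (95% interval 1356 to 1675 bp, from ranks of the gaps over peaks), with quartiles of 467 and 3332 bp, and 10% of the peaks lay within 179.4 bp. The first 1000 bp beside a donor peak held 357 flanking peaks (40.0%), the next 1000 bp held 169 (18.9%), and each of the 3 steps of 1000 bp from there to the limit held 112 to 140. Outside the limit the counts were similar and then fell slowly. Peaks after NT that were absent from donor MEFs and C2C12 numbered 141 from 5000 to 6000 bp and 156, 122, 114 and 100 in the next 4 steps, up to 10000 bp. Only the first 1000 bp thus stood clearly above the later steps, while the 169 of the next step were close to the 156 from 6000 to 7000 bp. No expected count by distance was computed.

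In steps of 150 bp, about the length of DNA on 1 nucleosome, the counts fell from 77 in the first step to 76, 63, 51, 40, 39 and 20. The next 3 steps held 23, 27 and 31 peaks. Steps of this size cannot show a regular spacing of about 1 nucleosome, so none is judged here. Of all flanking peaks 236 (26.4%, 95% Wilson interval 23.6% to 29.4%) lay less than 500 bp from the donor site. Only 2 touched it, with a gap of 0 bp.

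**Figure D1:**
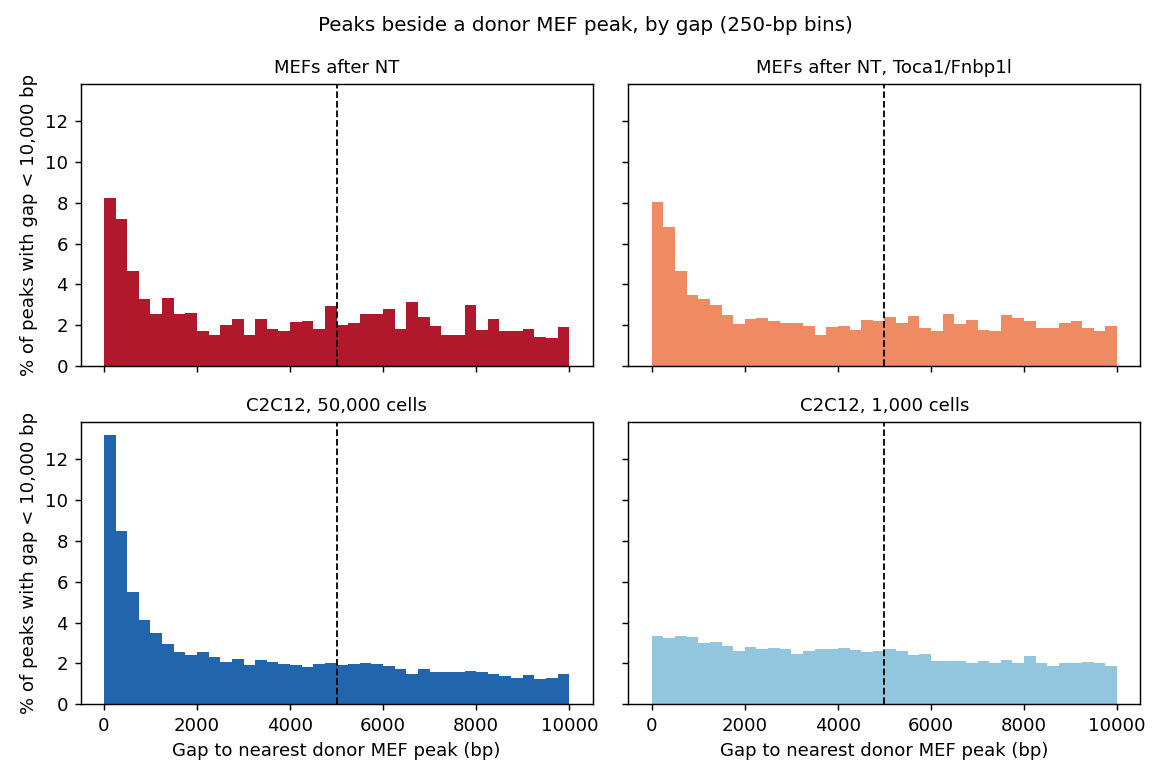
Peaks that overlap no donor MEF peak, by the gap in bp between their edge and that of the nearest donor MEF peak (x axis, 250-bp bins), as a percentage of all such peaks with a gap below 10000 bp (y axis). Peaks on a C2C12 50000-cell peak are left out of the other 3 panels, and the dashed line is the 5000 bp limit. After NT, with Toca1 and in C2C12 from 50000 cells the first 1000 bp hold the tallest bars. The bars of the 1000-cell C2C12 list, without its peaks on a 50000-cell peak, fall only slowly.

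The same distance limit was applied to the other lists to see whether this spread was shared. Peaks on a 50000-cell C2C12 peak were left out of every list except the 50000-cell list itself, so the sets are unlike. With Toca1, 1809 peaks flanked a donor MEF peak and were absent from C2C12, their median gap was 1498 bp (interval 1381 to 1648 bp), and 25.4% lay within 500 bp (interval 23.4% to 27.4%). The values with and without Toca1 differed by less than their counting error. In the C2C12 list from 50000 cells, 8624 peaks flanked a donor MEF peak, with a median gap of 1181 bp (interval 1130 to 1234 bp) and 32.0% of them within 500 bp (interval 31.0% to 33.0%). The C2C12 list from 1000 cells, without its peaks on a 50000-cell peak, showed almost no crowding. Its 4982 flanking peaks had a median gap of 2320 bp (interval 2254 to 2388 bp), and 11.7% lay within 500 bp (interval 10.8% to 12.6%). Crowding beside MEF peaks was therefore present in both sets from transferred nuclei and in the C2C12 list from 50000 cells. The set from 1000 cells held only peaks absent from the 50000-cell list. Gaps of its other peaks were not counted, so the full 1000-cell list is not judged here.

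The neighbouring donor site itself was rarely kept. A MEF peak was counted as kept when a peak after NT overlapped it by at least 1 bp. The nearest MEF peak was kept for 74 of the 893 flanking peaks (8.29%, 95% Wilson interval 6.65% to 10.3%) and was not kept for 819 (91.7%). The flanking peaks had 880 distinct neighbours, of which the same number, 74, were kept (8.41%, interval 6.75% to 10.4%). Over all donor MEF peaks the share was 9.73%, and over the 38712 MEF peaks that were no neighbour of a flanking peak it was 9.76% (interval 9.47% to 10.1%). The difference was -1.36 percentage points (95% Newcombe interval -3.04 to 0.685), which holds 0. The share was lower among the neighbours on 14 of 20 chromosomes and higher on 6. When flanking peaks that also lay on C2C12 peaks were included, the difference turned to 1.99 percentage points (interval 0.276 to 3.93), and a limit of 10000 bp gave 1.69 (interval 0.140 to 3.43). Other settings gave a lower share among neighbours, with intervals below 0. The difference was -2.25 points with peaks up to 150 bp apart joined (interval -3.87 to -0.262) and -2.99 with gaps of at least 500 bp (interval -4.71 to -0.771). It was -1.74 with an overlap of 50% of both peaks (interval -2.94 to -0.153) and -1.96 with any MEF peak in the window as a neighbour (interval -3.47 to -0.139). The direction of this small difference therefore depended on the setting.

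Sites open in both MEFs and C2C12 cells were kept more often in both groups. Of the neighbours, 558 (63.4%, interval 60.2% to 66.5%) overlapped a C2C12 peak from 50000 cells, close to the 64.6% of all MEF peaks. Among these shared sites 11.5% of neighbours (interval 9.08% to 14.4%) and 14.0% of other MEF peaks (interval 13.6% to 14.5%) were kept. Among the sites absent from C2C12, 10 of 322 neighbours (3.11%, interval 1.70% to 5.62%) and 1.98% of other MEF peaks (interval 1.76% to 2.23%) were kept. The neighbours were about as wide as other MEF peaks, with medians of 406 and 399 bp. When all MEF peaks were divided into 4 width classes of 25% each, at 304, 399 and 540 bp, the share of neighbours kept was 3.30% in each of the 2 narrower classes, 9.17% in the next and 17.6% in the widest, against 3.27%, 5.11%, 10.4% and 20.1% of other MEF peaks. The intervals of neighbours and others overlapped in each of the 4 classes. With sites divided by both width and presence in C2C12, the intervals stood apart in 1 of 8 classes, the widest sites absent from C2C12, where 4 of 31 neighbours (12.9%, interval 5.13% to 28.9%) and 3.03% of other MEF peaks (interval 2.30% to 3.98%) were kept. The share kept was higher among wide sites and among those present in C2C12 in both groups.

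**Figure D2:**
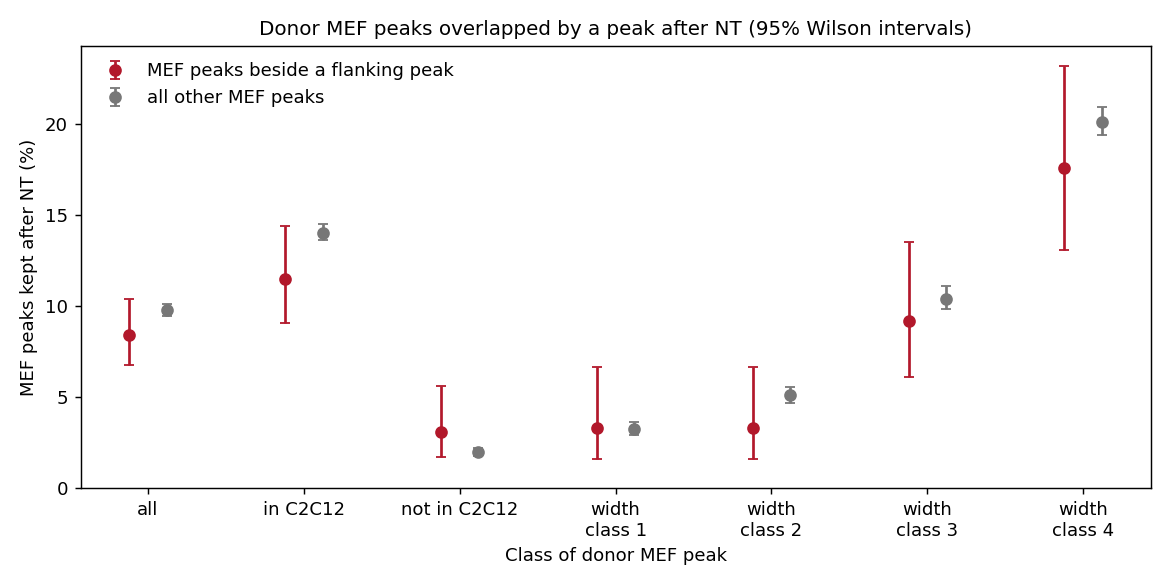
Percentage of donor MEF peaks overlapped by a peak after NT (y axis) for the 880 neighbours of flanking peaks (red) and the 38712 other MEF peaks (grey), over all peaks, by presence in C2C12 from 50000 cells and by width class (x axis). Points are shares and bars 95% Wilson intervals over peaks; both groups rise from the narrowest to the widest class, from 3.30% to 17.6% and from 3.27% to 20.1%.

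The share differed with distance inside the window. Where the gap was below 1000 bp the neighbour was kept for 42 of 357 flanking peaks (11.8%, interval 8.82% to 15.5%), and at 1000 bp or more for 32 of 536 (5.97%, interval 4.26% to 8.31%). In finer steps the share was 12.7% below 500 bp, 9.92% from 500 to 1000 bp, 5.92% and 4.35% in the next 2 steps of 1000 bp, 9.82% from 3000 to 4000 bp and 4.29% in the last step. The fall was thus not even. Of the neighbours of the closer flanking peaks 67.2% were shared with C2C12, against 60.4% for the farther ones, and the part of this in the result was not tested. Around the 74 kept neighbours, the peak after NT on the neighbour lay 56 to 5508 bp from the flanking peak, with a median of 817.5 bp and 9 gaps below 150 bp.

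The same count was made for the flanking peaks of the other lists. Of the MEF peaks beside a flanking C2C12 peak from 50000 cells, 76.4% (interval 75.4% to 77.4%) were themselves present in that list, against 64.6% of all MEF peaks. With Toca1, 18.6% of such neighbours (interval 16.9% to 20.5%) were present with Toca1, against 19.7% of all MEF peaks. In the C2C12 list from 1000 cells 4.99% of the neighbours (interval 4.40% to 5.66%) were present, against 6.03% of all MEF peaks. The neighbours were thus present more often than all MEF peaks in the 50000-cell C2C12 list alone. The rules were not alike, because peaks on a 50000-cell C2C12 peak were left out of the other lists, and without that filter the neighbours after NT were also kept more often than other MEF peaks (11.7% against 9.67%). The lists also differ in peak number and were made from different cell numbers, which cannot be told apart from the cell type here.

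Several flanking peaks could share 1 neighbour. Of the 880 neighbours, 868 had 1 flanking peak, 11 had 2 and 1 had 3. The 12 with more than 1 carried 25 flanking peaks, on both sides at 5 of them and on 1 side at 7. Of these 12, 0 were kept, against 8.41% of all 880 neighbours, and 12 sites are too few to compare with that share. For 156 flanking peaks 2 or more MEF peaks lay within the limit, on both sides for 76. A typical flanking peak sat among open sites of the donor, with a median of 4 MEF peaks within 50 kb on either side (quartiles 3 and 6), the same median as for peaks on a MEF peak and above the 2 of distant peaks absent from C2C12 (quartiles 1 and 4). Closeness to a MEF peak is part of the rule, so this is a description only. The number per chromosome followed that of the MEF peaks loosely, from 7.90 flanking peaks per 1000 MEF peaks on chromosome X to 35.9 on chromosome 11, which held 89.

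The neighbourhood in which the most flanking peaks met was inside Dip2b, which encodes a protein of the DIP2 family. The lists carry no gene names and no gene annotation in mm9 was used. A flanking peak was placed in a gene only where the nearest newly opened peaks on both sides of it, as listed in the study's supplementary table, were assigned there to the same gene. Whether such a peak is exonic or intronic is not known. On chromosome 15 the donor MEFs had a peak from 99928465 to 99928869, and no peak after NT, with Toca1 or in either C2C12 list overlapped it. After NT, peaks stood from 99927560 to 99927798 and from 99927888 to 99928259 on its lower side, the latter 205 bp away, and another stood from 99933654 to 99933865, 4784 bp away on its higher side. With Toca1 a single peak from 99927548 to 99928328, 781 bp wide, covered both of the lower ones and ended short of the MEF site. A second Toca1 peak, from 99933785 to 99934011, overlapped the peak on the higher side. At this locus the lists of both NT conditions thus held peaks on either side of the donor site and none on it.

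**Figure D3:**
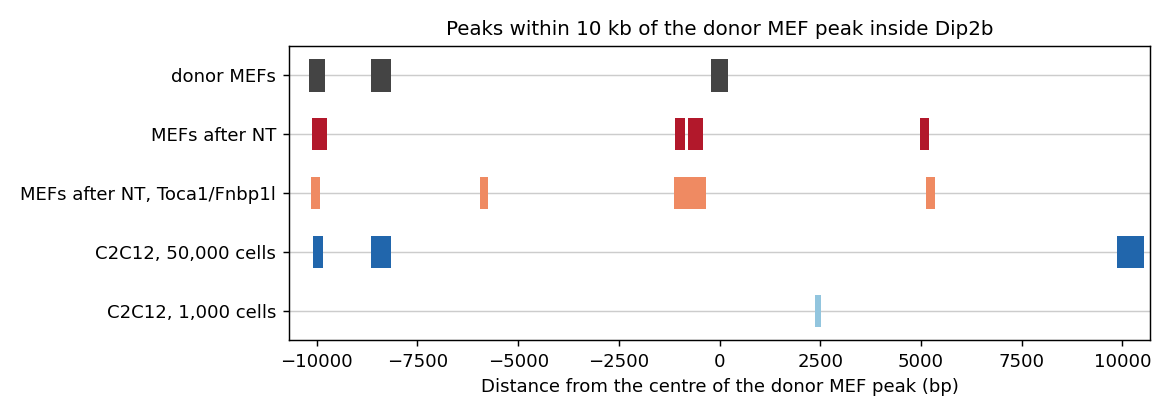
Peaks of the 5 lists (rows) within 10 kb of the donor MEF peak inside Dip2b, drawn to scale by distance from the centre of that MEF peak in bp (x axis). The central donor peak has no counterpart in the other lists, while 3 peaks after NT lie beside it and are each overlapped by a Toca1 peak.

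In all, 10 flanking peaks could be placed in 8 genes in this way. The widest, 524 bp, lay in Rnf157, which encodes an E3 ubiquitin ligase, from 116235915 to 116236438 on chromosome 11 and 2394 bp from its MEF neighbour. Rptor, which encodes the Raptor subunit of the mTORC1 kinase complex, held a flanking peak of 355 bp on the same chromosome from 119654153 to 119654507, 1546 bp from its neighbour. Narrower peaks followed. Inadl (Patj), a polarity scaffold gene, held one of 192 bp just 95 bp from its neighbour on chromosome 4, from 98178490 to 98178681. Aff3, which encodes a nuclear protein of the AF4 family, held one of 182 bp on chromosome 1 from 38527554 to 38527735, with a gap of 261 bp. Msra, a methionine sulfoxide reductase gene, and Cdh4, which encodes R-cadherin, held peaks of 163 and 155 bp, with gaps of 2683 and 4785 bp. None of the 10 had a kept neighbour, against a share of 8.29% over all flanking peaks, and 10 peaks are too few to compare with it. The 3 found again with Toca1 were those in Dip2b, where the share over all flanking peaks was 17.4%. The neighbours in Inadl and Trio were the 2 shared with C2C12. Being between distant new peaks of 1 gene favours long genes, so these 8 genes are no sample of all genes with a flanking peak.

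The Toca1 list, which the choice of the peaks did not use, was then searched for the flanking peaks. Toca1 (Fnbp1l) promotes actin polymerization. A Toca1 peak overlapped 155 of the 893 flanking peaks (17.4%, 95% Wilson interval 15.0% to 20.0%), against 44.3% of all peaks after NT. The share was 13.3% among distant peaks absent from C2C12 and 55.4% (interval 50.1% to 60.5%) among peaks near a MEF peak that lay on a C2C12 peak. Peaks on a MEF peak were found again at 72.2% (interval 70.7% to 73.6%). Flanking peaks were therefore found again far less often than peaks at sites open in a somatic cell, and the near peaks on a C2C12 peak were closer to the MEF peak, with a median gap of 230 bp. At gaps below 500 bp 25.8% of flanking peaks (interval 20.7% to 31.8%) and 57.1% of near peaks on a C2C12 peak (interval 50.8% to 63.3%) were found with Toca1. At 1000 bp or more the shares were 13.8% (interval 11.1% to 17.0%) and 51.4% (interval 40.1% to 62.6%). The gaps were not matched within these steps. Median gaps were 232.5 and 144.5 bp below 500 bp, and 2875.5 and 2354.5 bp at 1000 bp or more. The part of the gap in the result was not tested. The Toca1 library is 1 library of another treatment, so what it was treated with cannot be told apart from how deeply it was sequenced.

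Wider flanking peaks were found again more often. In 4 width classes of 25% each of all peaks after NT, divided at 224, 291 and 417 bp, the share found with Toca1 was 10.2% among the 342 narrowest flanking peaks, then 17.5%, 20.5% and 35.7% among the 98 widest. Distant peaks absent from C2C12 had 6.84%, 12.2%, 18.5% and 35.7%. The intervals of these 2 groups overlapped in each width class. Near peaks on a C2C12 peak had 51.8%, 51.6% and 74.6% in the 3 wider classes, above the flanking peaks by more than the counting error in each.

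**Figure D4:**
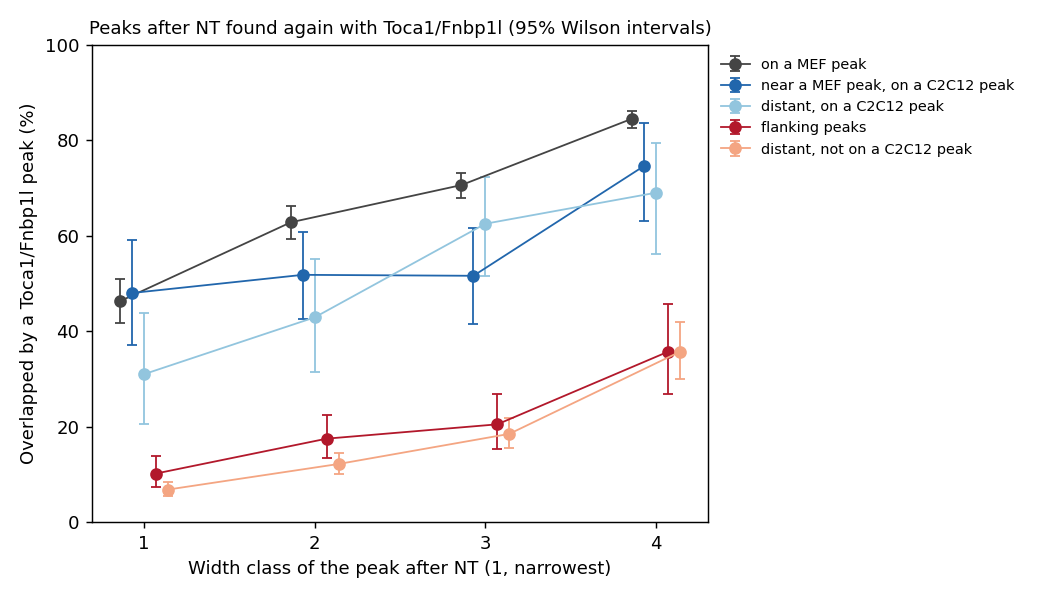
Percentage of peaks after NT overlapped by a Toca1/Fnbp1l peak (y axis) by width class of the whole list after NT (x axis), for the flanking peaks (red) and the other 4 classes. Points are shares and bars 95% Wilson intervals; the flanking peaks run from 10.2% to 35.7%, beside the distant peaks absent from C2C12 and below the 3 classes on a somatic peak.

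The 3 widest flanking peaks were all found with Toca1, against 35.7% of the widest class and 17.4% of all flanking peaks. They were 865 bp wide on chromosome 6 from 142911928 to 142912792, 747 bp wide on chromosome 14 from 55146208 to 55146954, and 705 bp wide on chromosome 17 from 88527413 to 88528117. Their gaps to a MEF peak were 610, 391 and 3910 bp, and none of these neighbours was kept, against 8.29% over all flanking peaks. The Toca1 list held the neighbour of the second one. The widest flanking peaks with a kept neighbour were narrower, at 565 bp on chromosome 9 from 70527314 to 70527878, 515 bp on chromosome 11 from 78636003 to 78636517, and 495 bp on chromosome 9 from 108354178 to 108354672. Of these, the first was found with Toca1, and all 3 neighbours were. Over all flanking peaks with a kept neighbour 28.4% were found with Toca1, and over all 880 neighbours 25.0%. Sets of 3 peaks picked by width are too few to compare with any of these shares.

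At the inner end of the window, a peak on chromosome 1 from 63160499 to 63160764 touched a MEF peak that was not kept, and one on chromosome 17 from 44215991 to 44216238 touched a MEF peak that was. Another, on chromosome 16 from 21204957 to 21205231, lay 1 bp from a kept MEF peak. All 3 were found with Toca1, against 25.8% of flanking peaks with gaps below 500 bp. At the outer end, the last peaks inside the limit had gaps of 4993, 4986 and 4974 bp, and the first ones outside it 5007, 5009 and 5009 bp. Their widths were 280, 409 and 166 bp inside and 244, 225 and 561 bp outside. Of the inner 3 none was found with Toca1, against 16.4% of flanking peaks with gaps from 4000 to 5000 bp. Of the outer 3 there were 2, against 44.3% of all peaks after NT. Sets of 3 peaks picked by their gap are too few to compare with these shares.

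With Toca1 some flanking peaks and their neighbours were joined under 1 peak. A single Toca1 peak reached both the flanking peak and its MEF neighbour in 42 cases (4.70%, interval 3.50% to 6.30%), and separate Toca1 peaks lay on each in 26. Only the flanking peak was found in 87 cases (9.74%), only the neighbour in 153 (17.1%) and neither in 585 (65.5%, interval 62.3% to 68.6%). The joined cases had a median gap of 180.5 bp and at most 907 bp, under Toca1 peaks with a median width of 928.5 bp. Toca1 peaks are wider in general, with a median of 467 against 291 bp after control NT, and the part of this in the result was not tested.

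These joined cases carried a part of the recurrence. Below 1000 bp, 22.7% of flanking peaks (interval 18.6% to 27.3%) were found with Toca1, and at 1000 bp or more 13.8% (interval 11.1% to 17.0%). Without the 42 joined cases, a division chosen after the values had been seen, the share below 1000 bp was 12.4% (interval 9.19% to 16.5%) and that over all flanking peaks 13.3% (interval 11.2% to 15.7%). Flanking peaks with a kept neighbour were found at 28.4% (interval 19.4% to 39.5%) and those without at 16.4% (interval 14.0% to 19.1%). Without the joined cases these shares were 13.1% and 13.3%, with 8 of 61 behind the first. Every joined case counts as found and has a short gap, so leaving them out lowers these shares by construction, and nothing is read from the shares that remain.

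The neighbours themselves were present with Toca1 more often than other MEF peaks. Of the 880 neighbours 220 (25.0%, interval 22.3% to 28.0%) were overlapped by a Toca1 peak, against 19.6% of other MEF peaks (interval 19.2% to 20.0%) and 19.7% of all. Among sites shared with C2C12 the shares were 34.6% (interval 30.8% to 38.6%) and 27.9% (interval 27.3% to 28.5%), and among the rest 8.39% (interval 5.83% to 11.9%) and 4.40% (interval 4.07% to 4.76%). By width, the intervals stood apart in the narrowest class and in the wider of the 2 middle classes, and overlapped in the other two. Every joined case counts as a neighbour found, and leaving them out brought the share over all neighbours to 21.3% (interval 18.7% to 24.2%), a fall that is fixed by construction. Closer neighbours stood out, with 36.4% present with Toca1 at gaps below 1000 bp (interval 31.6% to 41.5%) and 17.0% at larger gaps (interval 14.0% to 20.4%). All joined cases lie among the closer ones. Without them the closer share was 27.9% (interval 23.3% to 33.1%), a value lowered by construction, and nothing is read from it. Of the 806 distinct neighbours that were not kept after control NT, 164 (20.3%, interval 17.7% to 23.3%) were found with Toca1, against 13.8% of the other MEF peaks that were not kept (interval 13.5% to 14.2%). Joined cases count as found here too and were not left out. They made up 29 of the 819 flanking peaks whose neighbour was not kept.

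**Figure D5:**
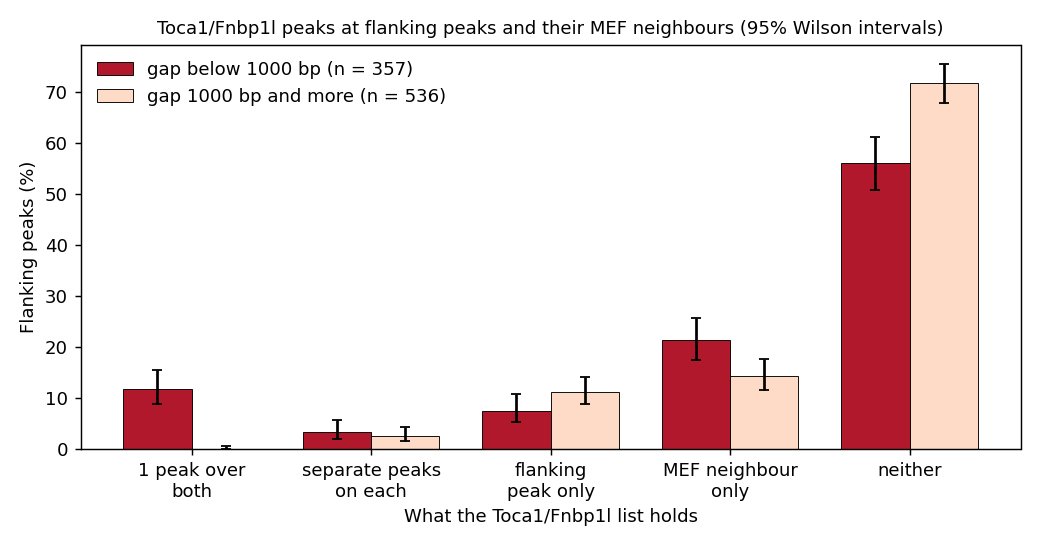
What the Toca1/Fnbp1l list holds at each flanking peak and its nearest donor MEF peak (x axis), as a percentage of flanking peaks (y axis) with a gap below 1000 bp (red, n = 357) and of 1000 bp or more (pale, n = 536); bars show shares with 95% Wilson intervals. One peak over both is seen in 11.8% of the closer pairs and in 0 of the farther ones (interval up to 0.712%), and neither site is found in 56.0% and 71.8%.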

How the data were processed

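The authors deposited 1 peak list per condition, matched to its condition by the list name. Peaks are listed by chromosome with their start and end in bp, without score or normalization. The submitters' processing notes name mm9, Bowtie2 2.2.1, Picard and MACS2 2.1. Whether replicate libraries were pooled before peak calling is not given in the sources used here. Reads of MEFs from a cross with Mus musculus castaneus were placed on the mm9 reference, and how strain differences affect single peaks was not tested.

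Starts were changed to 1-based. A gap is the number of bp between facing edges. Overlap meant 1 shared bp or more. The work was done in Python 3.11.15 with numpy 2.4.6, scipy 1.17.1 and matplotlib 3.10.9. Shares have 95% Wilson intervals over peaks, medians an interval from binomial ranks, and the difference of shares a Newcombe interval. All cover counting error only, and peaks of 1 list are not replicates, so no p-value was computed. The code for the rule was tested on simulated peaks.

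The members and settings were chosen with earlier results of these data known. Named were the 3 widest peaks (over all, found with Toca1, with and without a kept neighbour), the 3 nearest and farthest, the 3 just outside, MEF peaks with 3 or more flanking peaks, and peaks placed in a gene. The 2430 rows used for genes, from a shortened copy of the table, all matched a peak after NT, and each of the 8 genes has a symbol in RefSeq's GRCm38.p6 gene table, of which no coordinate was used. No genome in mm9 was used, so no sequence is given.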

Additional observations from a re-analysis of the deposited data

Results flagged for a closer look

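The C2C12 list from 1000 cells served above only for the gaps and neighbours of its own flanking peaks and for the map of 1 locus. Its peaks overlapped 14 of the 893 flanking peaks (1.57%, 95% Wilson interval 0.936% to 2.61%), all of which are absent from the C2C12 list from 50000 cells. They are given here because some peaks were found in a list that no comparison of the flanking peaks themselves had used. The share among distant peaks absent from the 50000-cell list was 1.28% (interval 0.931% to 1.76%). It was higher in the other classes, at 4.06% of near peaks on a C2C12 peak, 6.95% of distant peaks on one and 16.1% of peaks on a MEF peak. The overlap of the flanking peaks was thus low, near that of the distant peaks absent from the 50000-cell list.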

How the results depend on the processing

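Of 42 values recomputed under other settings, 25 stayed within the interval of the reported value, or within 1.5 times for counts, and 17 did not. Merging peaks with gaps of up to 150 bp, or using autosomes alone, moved none of the 5 values they were run for. With a width of 250 bp or more required of each peak, 414 flanking peaks remained, 6.04% with a kept neighbour and 23.9% found with Toca1. At gaps of at least 500 bp 14.3% were found with Toca1, and without the joined cases 13.3%, a setting added after the data had been seen. A limit of 2000 bp left 526 peaks. A limit of 10000 bp gave 1526, with 11.3% kept and a difference of 1.69 percentage points to other MEF peaks. Without the C2C12 filter 11.6% had a kept neighbour, the median gap was 926 bp, 27.9% were found with Toca1 and the difference was 1.99 points. Requiring 50% of both peaks to overlap lowered the kept share to 4.37% and the share found with Toca1 to 7.05%. The rule applied to the Toca1 list gave 1809 peaks, 18.4% of them with a neighbour in that list. The difference between neighbours and other MEF peaks was -1.36 points and its interval held 0. It was also above 0 at a limit of 2000 bp (0.230) and lowest at gaps of at least 500 bp (-2.99). Beyond what the settings impose by construction, the cause was not tested. The lists hold no reads, so a site missing from a list may lie below its threshold. No paired analysis was possible because each condition has 1 list for all its libraries.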
